A study of Mus musculus with 12 samples.

Results

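A list of 10 genes that move, store or sense iron was followed across 12 arrays of mouse embryonic fibroblasts (MEFs), 3 arrays in each of 4 groups. The genes were listed by symbol: Tfrc, Slc40a1, Slc11a2, Fth1, Ftl1, Aco1, Ireb2, Hmox1, Fbxl5 and Ncoa4. A gene can be read by several probe sets, each a group of short probes for one transcript, and every probe set annotated to 1 gene symbol alone was kept. Of the 10 genes, 8 were measured, on 13 probe sets, out of 17097 genes on 28898 such probe sets. Tfrc had 3 probe sets, Slc40a1, Aco1 and Ncoa4 had 2 each, and Fth1, Ftl1, Hmox1 and Fbxl5 had 1 each. Slc11a2, the importer DMT1, was represented on probe sets that also list another gene, and Ireb2, which encodes the iron regulatory protein IRP2, had no probe set naming it alone, so neither is described here.

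The cells were primary MEFs of passage 4 from e14.5 embryos of a C57Bl/6 x 129Sv F1 background. One genotype was wild type. The other was homozygous for conditional alleles of both CBP and p300, related histone acetyltransferases that act as transcriptional coactivators, and is called dKO here. Cre adenovirus (multiplicity of infection 100) was given to both genotypes for 16 h under 3% oxygen, so the controls carried the virus and the recombinase too. Culture went on for 48 h under 3% oxygen and a further 24 h in normoxia, followed by 3 h with 100 µM dipyridyl (DP), which chelates iron, or with its vehicle, ethanol. Replicates were separate MEF lines, numbered 3, 4 and 5 in wild type and 1, 5 and 6 in dKO, and each line was given both treatments. Line 5 of one genotype is not line 5 of the other. The question was how the iron-handling transcripts differ between the genotypes and how they respond to short chelation.

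Cells take up iron as transferrin through the transferrin receptor, keep it in ferritin, and release it through ferroportin. Iron regulatory proteins bind hairpins in several of these messengers when iron is scarce, which protects the Tfrc messenger from decay and blocks translation of the ferritin and ferroportin messengers. The prolyl hydroxylases that mark the hypoxia-inducible factors (HIFs) for destruction need iron, so a chelator also switches on HIF target genes, and HIFs recruit CBP and p300. An array reads messenger level and not translation.

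Promoter sequences are shown for 3 of the members that had a promoter window. They are Tfrc, which was higher with DP in dKO, and Ncoa4 and Ftl1, which were higher in dKO. Slc40a1 and Fbxl5, which also differed between the genotypes, had no window. Each is the 250 bases before a RefSeq transcription start on build GRCm38.p6, 5′ to 3′ on the gene's strand. Capitals mark ACGTG, the core letters of the element that HIFs bind, and TGACGT, the core letters of the element that the CBP partner CREB binds. The windows lie at chr16:32608872-32609121 (plus strand) for Tfrc, chr14:32165539-32165788 (plus strand) for Ncoa4 and chr7:45459887-45460136 (minus strand) for Ftl1.
Tfrc: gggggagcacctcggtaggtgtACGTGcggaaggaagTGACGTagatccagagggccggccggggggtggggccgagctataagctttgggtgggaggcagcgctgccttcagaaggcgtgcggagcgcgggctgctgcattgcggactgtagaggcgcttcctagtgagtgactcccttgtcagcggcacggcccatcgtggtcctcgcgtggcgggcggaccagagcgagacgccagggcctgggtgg
Ncoa4: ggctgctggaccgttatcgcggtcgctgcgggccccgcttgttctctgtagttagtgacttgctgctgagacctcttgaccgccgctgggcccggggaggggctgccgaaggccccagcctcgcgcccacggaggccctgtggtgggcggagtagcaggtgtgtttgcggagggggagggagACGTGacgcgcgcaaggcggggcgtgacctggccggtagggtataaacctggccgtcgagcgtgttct
Ftl1: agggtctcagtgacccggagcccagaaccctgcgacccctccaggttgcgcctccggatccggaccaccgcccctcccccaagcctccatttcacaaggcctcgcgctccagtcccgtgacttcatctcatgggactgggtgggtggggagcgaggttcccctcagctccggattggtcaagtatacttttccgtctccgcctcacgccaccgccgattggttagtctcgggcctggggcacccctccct
In the Tfrc window ACGTG began 228 bases and TGACGT 213 bases upstream of the start, without overlap. Another Tfrc start in RefSeq puts the same ACGTG 2 bases upstream. In the Ncoa4 window ACGTG began 68 bases upstream. The Ftl1 window held neither string. With both strands searched in windows of 300 bases around each start, ACGTG was in 6447 of 32851 windows of all genes (19.6%) and TGACGT in 2468 (7.51%). The 6 member genes with a window had 10 windows. ACGTG was in 4 of them, of Tfrc and Ncoa4, and TGACGT in 2, both of Tfrc. The 2 Tfrc windows overlap and share their matches. A match is a description of letters, not of binding.

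Levels are log2 values, so a difference of 1 is a doubling. Where groups are said not to overlap, that describes their arrays. How many of all probe sets separate likewise was not counted, so it is no added support for a difference. Of 10 listed HIF targets, 10 were called higher with DP in wild-type cells and 9 in dKO cells. Over all genes 3.25% and 1.02% had a higher probe set. The medians over the brightest probe set of each target were 2.01 and 2.56. That list was chosen with earlier results of these data known, so it is no independent check of the treatment. All 10 fibroblast markers were measured and 8 reached a mean of at least 7 in a group. Their summed level was 14.9 to 15.0 on the wild-type arrays and 13.6 to 13.9 on the dKO arrays. Blank control spots reached at most 3.54 at their 95th percentile, and a probe set whose group mean lies at or under that value is called blank. Crebbp, the CBP gene, read 8.07 to 8.54 in wild type and 7.02 to 7.69 in dKO, which does not check the deletion where probes lie outside the deleted part. Xist was 10.28 to 10.75 on every wild-type array and 3.94 to 5.32 on every dKO array, so embryo sex and genotype cannot be told apart in any difference between genotypes. The beta-actin 3′ minus 5′ difference, a sign of RNA quality, also rose by group, from 0.23 to 0.25 in wild type with ethanol, through 0.28 to 0.38 with DP and 0.40 to 0.45 in dKO with ethanol, to 0.48 to 0.60 in dKO with DP. With that difference as a covariate 1 of the genotype calls of member probe sets remained, Slc40a1 in ethanol. The same measure for Gapdh did not rise in this order. It was -0.03 to 0.15 in wild type with ethanol and 0.04 to 0.17 with DP. In dKO it was 0.19 to 0.21 with ethanol and 0.10 to 0.19 with DP. Gapdh thus separated the genotypes in ethanol but not under DP, and the graded rise rests on beta-actin alone.

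**Figure D1:**
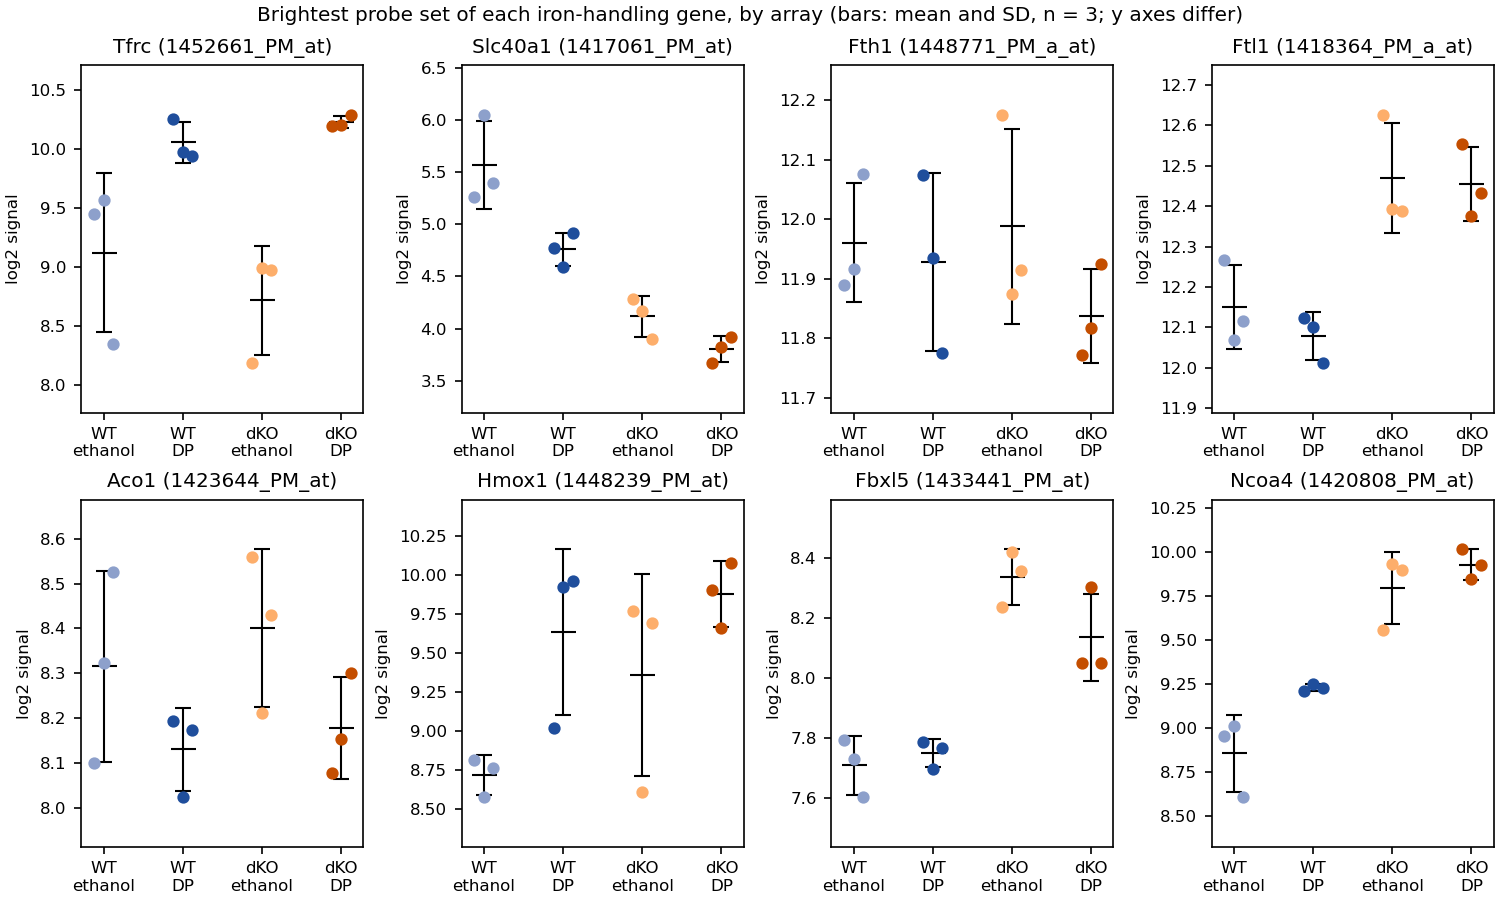
Log2 signal (vertical axis, which differs between panels) of the brightest probe set of each of the 8 measured genes, by group (horizontal axis). Points are arrays, 3 a group, and bars are the mean and SD. Tfrc reads higher with DP in both genotypes, though the difference passed the limma threshold in dKO alone. Slc40a1 is lower in dKO, and Ftl1, Fbxl5 and Ncoa4 are higher in dKO, with no overlap between the genotypes.

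Tfrc, the receptor that brings in transferrin-bound iron, was the member with the largest response to DP. On its brightest probe set (1452661_PM_at) wild-type lines 3, 4 and 5 read 9.45, 9.56 and 8.35 with ethanol and 10.25, 9.97 and 9.94 with DP. The dKO lines 1, 5 and 6 read 8.19, 8.99 and 8.98 with ethanol and 10.19, 10.20 and 10.29 with DP. In both genotypes every DP array lay above every ethanol array, and the DP arrays sat closer together than the ethanol arrays. In dKO cells the rise was 1.51 ± 0.28 (SE, n = 3 lines each, limma adjusted p = 0.0200), which is 2.84-fold. In wild-type cells the difference was 0.93 ± 0.28, with a 95% interval of 0.32 to 1.54 and an adjusted p of 0.116 in the same limma fit, so it did not pass the threshold of 0.05. The responses of the lines were 0.80, 0.41 and 1.58 in wild type and 2.0, 1.21 and 1.31 in dKO. The 2 genotypes' responses differed by 0.58 (95% interval -0.29 to 1.44), which is not a detected difference.

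The Tfrc estimates leaned on single arrays. Without dKO line 1 in ethanol the dKO rise was 1.24 (limma adjusted p = 0.0631), and without DP lines 1, 5 or 6 in turn it was 1.52, 1.52 and 1.48 (adjusted p = 0.0770, 0.0776 and 0.0946). It was called when MEF line entered as a block (adjusted p = 0.0112). Without wild-type line 5 in ethanol the wild-type difference was 0.54 (adjusted p = 0.282), and without dKO line 1 in ethanol, which is no part of that contrast but of the shared spread, it was 0.93 with an adjusted p of 0.0498. Those 2 ethanol arrays, wild-type line 5 and dKO line 1, were the lowest Tfrc readings of their groups. They also had the lowest or near-lowest mean correlation with their own group, 0.989 and 0.986, against 0.989 to 0.996 for the other 10. Without both, the wild-type difference was 0.54 (limma adjusted p = 0.0126) and the dKO difference 1.24 (adjusted p = 6.26e-05). Both arrays were singled out from these same data. Leaving out such low readings shrinks the shared spread, here to an SE of 0.11 in wild type against 0.28 with all arrays. The smaller p-values are thus no added support for a response.

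The other Tfrc probe sets read much lower. On 1422966_PM_a_at the means were 4.85 ± 0.29 and 5.15 ± 0.37 (SD, n = 3) in wild type with ethanol and DP, and 4.54 ± 0.10 and 4.70 ± 0.13 in dKO. Its DP differences were 0.30 ± 0.18 and 0.17 ± 0.18 (SE), neither past the limma threshold. The third, 1422967_PM_a_at, was blank in all 4 groups, with means of 3.12 to 3.28. The array's control probe sets for the transferrin receptor, at its 3′, middle and 5′ parts, read 3.12 to 3.96 on all arrays. The response was thus read by 1 of 3 Tfrc probe sets, and its average over the 3 was 0.59 in dKO cells (limma adjusted p = 0.0510).

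Between genotypes no Tfrc probe set differed past the threshold. On 1452661_PM_at the dKO minus wild-type difference was -0.40 ± 0.28 in ethanol (SE, 95% interval -1.02 to 0.21) and 0.17 ± 0.28 under DP. Without wild-type line 5 the ethanol difference was -0.79 (limma adjusted p = 0.0119), without dKO line 1 it was -0.14 (adjusted p = 0.747), and without both it was -0.52 (adjusted p = 0.00474). The limit given above for leaving out both arrays applies throughout this paragraph. On 1422966_PM_a_at the difference was -0.31 ± 0.18 in ethanol (SE, limma adjusted p = 0.226). Under DP it was -0.45 ± 0.18 (adjusted p = 0.0730), opposite in sign to the brighter probe set. That difference passed with cyclic loess (-0.50, limma adjusted p = 0.0460), without wild-type line 5 with DP (-0.63, adjusted p = 0.0195), without wild-type line 5 in ethanol (-0.45, adjusted p = 0.0464) and without both of the ethanol arrays above (-0.45, adjusted p = 0.0431).

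Slc40a1 encodes ferroportin, the exporter of cellular iron. It was lower in dKO cells and, in wild type, lower with DP. On 1417061_PM_at wild-type lines 3, 4 and 5 read 5.26, 6.05 and 5.40 with ethanol and 4.78, 4.59 and 4.91 with DP. The dKO lines 1, 5 and 6 read 4.28, 4.17 and 3.90 with ethanol and 3.67, 3.82 and 3.92 with DP. No dKO array reached the lowest wild-type array of the same treatment, and in wild type no DP array reached the lowest ethanol array. The dKO ethanol and DP arrays overlapped.

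In ethanol Slc40a1 was lower in dKO by -1.45 ± 0.18 (SE, n = 3 each, limma adjusted p = 5.55e-05), a 2.73-fold difference. Under DP it was lower by -0.95 ± 0.18 (adjusted p = 0.00137). DP lowered it in wild type by -0.81 ± 0.18 (limma adjusted p = 0.0260), 1.75-fold. In dKO the change was -0.31 ± 0.18 (95% interval -0.71 to 0.08, adjusted p = 0.478). The dKO means on this probe set were 4.12 with ethanol and 3.80 with DP, not far above the blank level of 3.54. From the dKO ethanol mean, a fall as large as the wild-type one would end under that level. How far this limits the dKO change, and the sizes of the genotype differences, was not tested. The 2 responses differed by 0.50 (95% interval -0.06 to 1.06, adjusted p = 0.903), so they were not shown to differ. The genotype difference in ethanol was called in every alternative tried, and that under DP in all but the one with the actin covariate (adjusted p = 0.199).

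The wild-type response of Slc40a1 to DP was less firm. Line 4 changed by -1.46, lines 3 and 5 by -0.48 and -0.49. Without line 4 in ethanol the difference was -0.57 (limma adjusted p = 0.0608), and without DP lines 3, 4 or 5 in turn it was -0.82, -0.72 and -0.88 (adjusted p = 0.0830, 0.128 and 0.0525). Its adjusted p was 0.0638 when MEF line entered as a block.

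The second ferroportin probe set, 1448566_PM_at, was above blank in wild type with ethanol alone, at 3.99 ± 0.16 (SD, n = 3), and blank in the other groups at 3.53 ± 0.17, 3.15 ± 0.24 and 3.31 ± 0.21 for wild type with DP, dKO with ethanol and dKO with DP. Against the blank level of 3.54 it was at least 1.37-fold lower in dKO in ethanol (limma adjusted p = 0.000873 on the measured values). Its DP difference in wild type did not pass (adjusted p = 0.159).

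Ferroportin is abundant in macrophages, and some macrophage markers also differed by genotype. Lyz2 read 6.77 to 8.88 in wild type and 3.41 to 5.14 in dKO, Csf1r 4.87 to 5.47 and 4.30 to 4.79, and Tyrobp 3.43 to 5.44 and 3.05 to 3.34. Cd68 went the other way, 4.66 to 5.88 and 6.30 to 7.23, as did Cd14, with means of 5.12 and 5.08 in wild type and 6.11 and 5.72 in dKO (ethanol and DP). Fcgr1 was mixed, at 4.23, 4.35, 4.44 and 4.17 in the same order, and Adgre1 lay near the blank level at 3.54, 3.81, 3.31 and 3.39. Of the 10 macrophage markers Ptprc, Aif1 and Cd163 were blank in every group. The summed level was 7.98 to 9.50 in wild type with ethanol, 8.18 to 9.24 with DP, 8.08 to 8.44 in dKO with ethanol and 8.04 to 8.12 with DP. Their part in the Slc40a1 difference was not tested. In bulk RNA fewer cells of a type and less RNA per cell cannot be told apart.

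**Figure D2:**
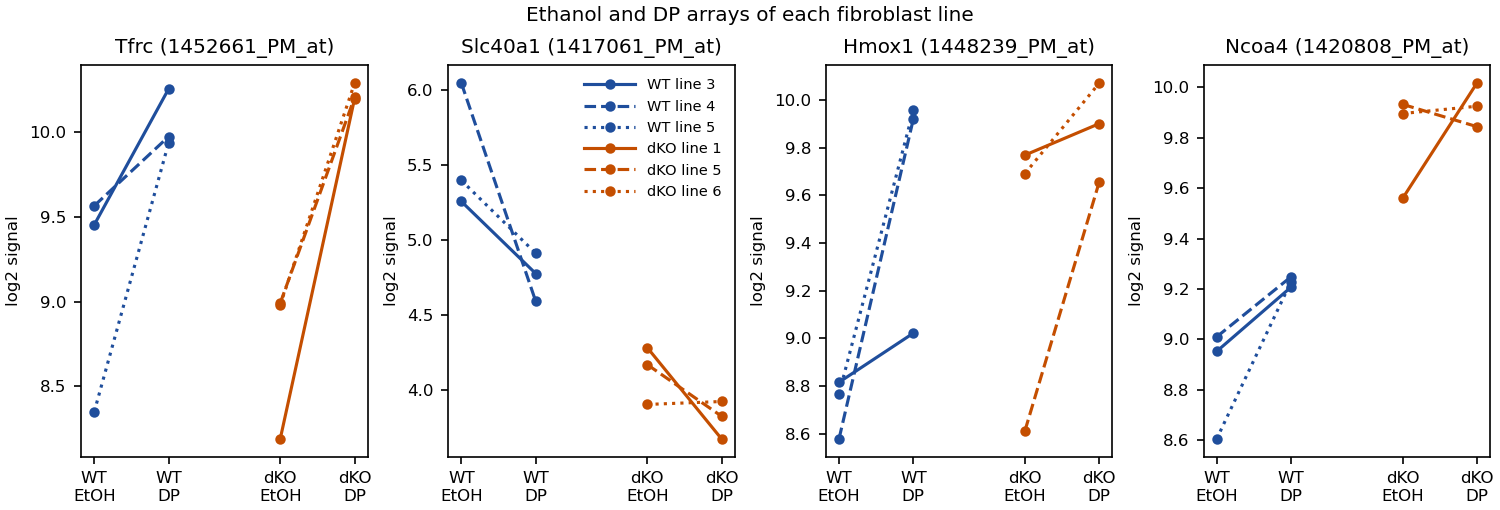
Log2 signal (vertical axis) of the brightest probe sets of Tfrc, Slc40a1, Hmox1 and Ncoa4 in ethanol and DP (horizontal axis). Each line joins the 2 arrays of 1 MEF line, blue for wild type and orange for dKO. All 6 Tfrc lines climb, by 0.41 to 2.0, as do all 6 Hmox1 lines, by 0.13 to 1.34, and wild-type line 4 has the steepest Slc40a1 slope.

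Hmox1, haem oxygenase 1, breaks down haem and frees its iron. Wild-type lines 3, 4 and 5 read 8.82, 8.58 and 8.77 with ethanol and 9.02, 9.92 and 9.96 with DP. The dKO lines read 9.77, 8.61 and 9.69 with ethanol and 9.90, 9.66 and 10.07 with DP. The wild-type groups did not overlap, while dKO line 1 in ethanol lay above dKO line 5 with DP. The DP difference was 0.91 ± 0.30 in wild type (SE, 95% interval 0.27 to 1.55, limma adjusted p = 0.148) and 0.52 ± 0.30 in dKO (adjusted p = 0.464), so neither passed. The genotype difference in ethanol was 0.64 ± 0.30 (adjusted p = 0.133).

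Single arrays decided both Hmox1 comparisons. Without wild-type line 3 with DP the wild-type difference was 1.22 (limma adjusted p = 0.0428), and without dKO line 5 in ethanol it was 0.91 (adjusted p = 0.0351). Without that same dKO array the ethanol difference between genotypes was 1.01 (adjusted p = 0.00720), and the DP difference in dKO was 0.15 (adjusted p = 0.798). Hba-a1, a haemoglobin gene of red cells, read 6.22 on that array and 7.06 on wild-type line 5 with DP, and at most 4.63 on the other 10. Of 7 erythroid markers measured, Alas2, Gata1 and Slc4a1 were blank in every group. Hbb-y had means of 2.79 and 4.37 in wild type with ethanol and DP and 3.63 and 2.83 in dKO. Epor had means of 4.24, 4.98, 4.28 and 4.64 in the same order, and Klf1 3.89, 4.32, 3.84 and 4.04. The summed level of the list was 6.49 to 6.55 in wild type with ethanol, 6.60 to 8.68 with DP, 6.23 to 7.49 in dKO with ethanol and 6.46 to 6.53 with DP. Their part in the Hmox1 values was not tested.

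Without both of those arrays, several member calls fell just outside the threshold at sizes close to those with them. Slc40a1 differed by -0.88 with DP in wild type (limma adjusted p = 0.0720) and Tfrc by 1.64 with DP in dKO (adjusted p = 0.0510). Ftl1 differed between genotypes by 0.36 in ethanol and 0.34 under DP (limma adjusted p = 0.0501 and 0.0572), and the second Ncoa4 probe set by 0.51 under DP (adjusted p = 0.0590). Hmox1 differed by 1.01 between genotypes in ethanol (limma adjusted p = 0.00680).

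Ferritin, the iron store, is built of a heavy chain (Fth1) that oxidises iron and a light chain (Ftl1). Fth1 read 11.96 ± 0.10 and 11.93 ± 0.15 (SD, n = 3) in wild type with ethanol and DP, and 11.99 ± 0.16 and 11.84 ± 0.08 in dKO. Its 95% intervals were -0.28 to 0.21 for DP in wild type, -0.39 to 0.09 for DP in dKO, -0.22 to 0.27 between genotypes in ethanol and -0.33 to 0.15 under DP. A change of Fth1 messenger as large as 0.40 in either direction thus lay outside each interval.

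Ftl1 differed by genotype and was not called for DP. It read 12.27, 12.07 and 12.12 in wild-type lines 3, 4 and 5 with ethanol and 12.63, 12.39 and 12.39 in dKO lines 1, 5 and 6. With DP the values were 12.12, 12.10 and 12.01 in wild type and 12.55, 12.37 and 12.43 in dKO. Every dKO array lay above every wild-type array. Ftl1 was higher in dKO by 0.32 ± 0.10 in ethanol (SE, limma adjusted p = 0.0299) and 0.37 ± 0.10 under DP (adjusted p = 0.0122). The ethanol call was lost without wild-type lines 4 or 5 or dKO line 1 in turn (0.28, 0.30 and 0.24, limma adjusted p = 0.100, 0.0725 and 0.0982), and the call under DP without dKO line 1 (0.32, adjusted p = 0.0529). Centring each array on its median also ended the ethanol call (0.28, limma adjusted p = 0.103). The DP intervals were -0.29 to 0.15 in wild type and -0.23 to 0.20 in dKO. Ferritin genes have many pseudogenes, and how far these probe sets share signal with them was not tested.

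Ncoa4 encodes the receptor that carries ferritin to the lysosome, where its iron is released, and it was the member most raised in dKO cells. On 1420808_PM_at wild-type lines 3, 4 and 5 read 8.95, 9.01 and 8.61 with ethanol and 9.21, 9.25 and 9.23 with DP. The dKO lines 1, 5 and 6 read 9.56, 9.93 and 9.90 with ethanol and 10.02, 9.84 and 9.93 with DP. Every dKO array was above every wild-type array. The difference was 0.94 ± 0.13 in ethanol (SE, limma adjusted p = 9.92e-05), 1.92-fold, and 0.70 ± 0.13 under DP (adjusted p = 0.000945). The second probe set, 1450006_PM_at, differed by 0.88 ± 0.15 in ethanol (adjusted p = 0.000496) and 0.52 ± 0.15 under DP (adjusted p = 0.0163). Its call under DP was lost without dKO DP lines 1 or 5 (0.49 and 0.47, limma adjusted p = 0.0554 and 0.0598) and when the arrays were rescaled by cyclic loess (0.35, adjusted p = 0.0839).

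With DP, Ncoa4 (1420808_PM_at) differed by 0.37 ± 0.13 in wild type (SE, limma adjusted p = 0.181) and 0.13 ± 0.13 in dKO (adjusted p = 0.681). The wild-type ethanol and DP arrays did not overlap, but the difference did not pass the threshold. Without wild-type line 5 in ethanol it was 0.25 (adjusted p = 0.495).

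Fbxl5 encodes the iron-sensing subunit of the ligase that degrades iron regulatory proteins. It read 7.79, 7.73 and 7.60 in wild-type lines 3, 4 and 5 with ethanol and 8.24, 8.42 and 8.36 in dKO lines 1, 5 and 6. With DP it read 7.79, 7.70 and 7.77, and 8.05, 8.30 and 8.05. The genotypes did not overlap in either treatment. Fbxl5 was higher in dKO by 0.63 ± 0.10 in ethanol (SE, limma adjusted p = 0.000376) and by 0.38 ± 0.10 under DP (adjusted p = 0.0105). The call under DP was lost without dKO line 5 with DP (0.30, limma adjusted p = 0.0510) and when the arrays were rescaled by cyclic loess (0.24, adjusted p = 0.0956). DP differences were 0.04 ± 0.10 in wild type and -0.20 ± 0.10 in dKO, neither called (adjusted p = 0.910 and 0.414).

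Aco1 encodes IRP1, the cytosolic aconitase that binds iron-responsive hairpins when it lacks its iron-sulphur cluster. On 1423644_PM_at its means were 8.32 ± 0.21 and 8.13 ± 0.09 (SD, n = 3) in wild type with ethanol and DP and 8.40 ± 0.18 and 8.18 ± 0.11 in dKO. The DP differences were -0.19 ± 0.13 and -0.22 ± 0.13 (SE), and the genotype differences 0.09 ± 0.13 in ethanol and 0.05 ± 0.13 under DP. On 1447080_PM_at, with means of 3.74 to 4.04, the largest difference was -0.29 ± 0.15 between genotypes in ethanol. No Aco1 difference passed the limma threshold.

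**Figure D3:**
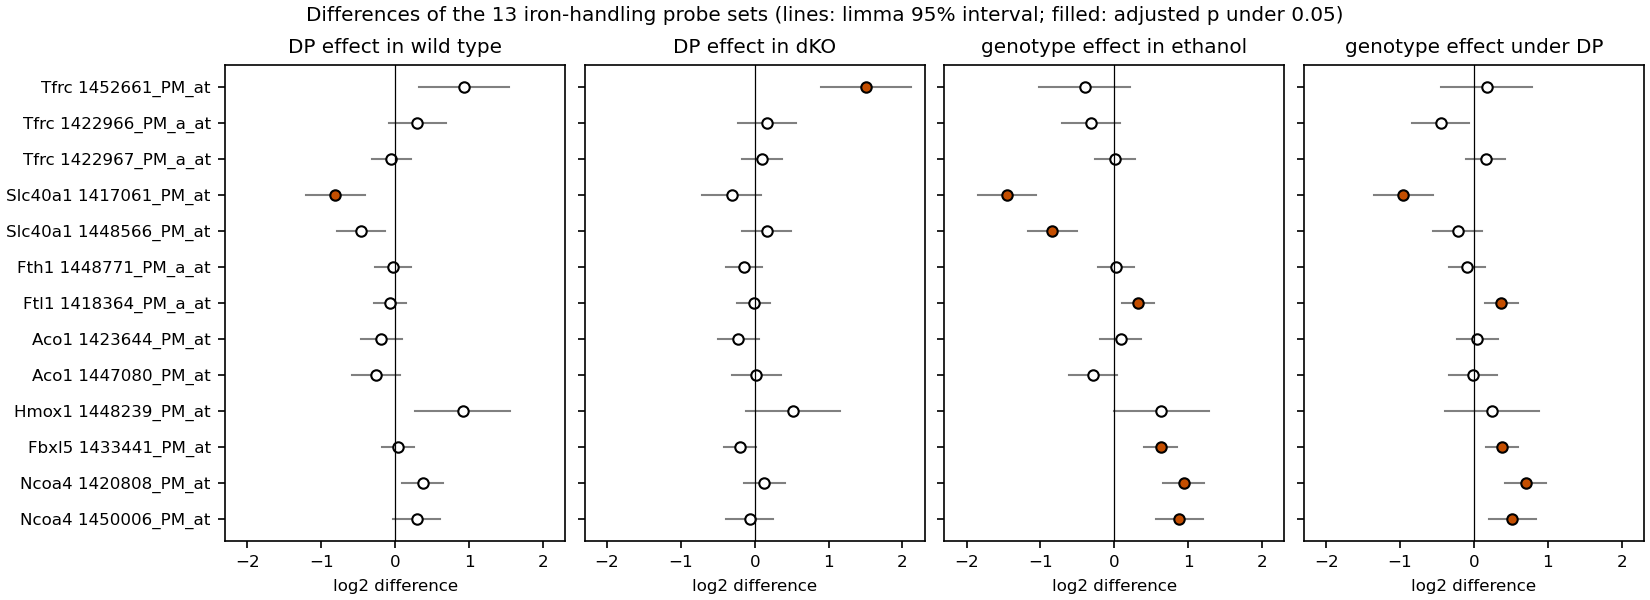
Differences (log2, horizontal axis) of the 13 member probe sets with their 95% intervals, one panel each for DP in wild type, DP in dKO, dKO against wild type in ethanol, and dKO against wild type under DP. Filled points passed a limma adjusted p of 0.05. One point is filled in each DP panel, Slc40a1 in wild type and Tfrc in dKO, against 6 and 5 in the genotype panels.

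Few member probe sets were called for DP. In wild type 0 of 13 member probe sets were called higher and 1 lower (Slc40a1), with 5 at an unadjusted limma p under 0.05, while 2.59% of all probe sets tested were higher and 1.11% lower. The share of all probe sets at that unadjusted threshold was not counted, here or for the lists below. The 5 thus cannot be set against the array. The median member difference was -0.03, against -0.02 over all probe sets, and rises and falls cancel in such a median. In dKO 1 member probe set was higher (Tfrc) and 0 lower, with 1 at an unadjusted p under 0.05, against 0.837% higher and 0.305% lower over all. The medians were 0.02 and -0.03. For the difference between the genotypes' responses 0 members were called by limma, with 1 at an unadjusted p under 0.05. It was the second Slc40a1 probe set (limma adjusted p = 0.557), which was blank in 3 of the 4 groups and so holds no usable difference of responses. Over all probe sets 0.0277% were higher and 0.374% lower.

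Genotype calls were more frequent than DP calls, among the members as over the whole array. In ethanol 4 of 13 probe sets from 3 genes (Ftl1, Fbxl5 and Ncoa4) were higher in dKO and 2 of 1 gene (Slc40a1) lower, where 17.0% of all probe sets were higher and 12.6% lower. Under DP 4 probe sets of the same 3 genes were higher and 1 lower, against 16.7% and 15.3%. Ncoa4 gave 2 of the 4 higher probe sets in each treatment, and Slc40a1 alone gave the lower ones. With 13 probe sets these counts do not set the members apart from the array. The median member difference was 0.03 in ethanol and 0.16 under DP, against 0.00 over all probe sets in both. The 2 genotype comparisons use different arrays, but each shares arrays with both DP comparisons.

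Other genes of the iron pathway were followed in 6 lists. Over all 17097 genes, DP gave 3.25% a higher and 1.75% a lower probe set in wild type, and 1.02% and 0.503% in dKO. DP changed few genes of the lists. In wild type 2 of 18 measured genes of mitochondrial iron and iron-sulphur clusters rose and 1 fell, and 1 of 16 haem genes rose. Isca1, a cluster assembly factor, rose by 0.50 ± 0.09 (SE, limma adjusted p = 0.00628), from a mean of 9.14 to 9.64. Slc25a28, the mitochondrial iron importer mitoferrin 2, fell by 0.59 ± 0.11 (adjusted p = 0.0101), from 7.73 to 7.15. In dKO it differed by -0.52 ± 0.11, just outside the threshold (limma adjusted p = 0.0538), and passed it without wild-type line 3 or 5 in ethanol (adjusted p = 0.0427 and 0.0204). Iba57, a cluster assembly factor, rose by 0.60 ± 0.13 (limma adjusted p = 0.0260), from 3.85 to 4.44, not far above the blank level of 3.54. A second Iba57 probe set read 3.15 to 3.67 on the wild-type ethanol arrays, around that level. Abcb6, a porphyrin transporter, rose by 0.56 ± 0.12 (limma adjusted p = 0.0162), from 6.88 to 7.45. The Iba57 call was lost without any of 4 arrays, wild-type lines 4 and 5 in ethanol and lines 3 and 5 with DP (0.52 to 0.62, limma adjusted p = 0.0622, 0.0987, 0.100 and 0.126). The Abcb6 call was lost likewise without lines 3 and 4 in ethanol and lines 4 and 5 with DP (0.53 to 0.56, limma adjusted p = 0.0678, 0.0573, 0.0717 and 0.0814).

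In dKO 1 of the 12 uptake and reduction genes fell with DP. It was the ferric reductase Cybrd1, at least 1.38-fold lower (limma adjusted p = 0.0485), from a mean of 4.00 to a blank 3.47. That call was lost without 10 of the 12 arrays in turn (limma adjusted p = 0.0514 to 0.189). In wild type limma called 0 uptake genes, with 4 probe sets at an unadjusted p under 0.05. The 9 export and hepcidin-axis genes had 0 calls in either genotype (0 and 1 at an unadjusted p under 0.05), the 6 iron chaperones 0 (3 and 2), and the 4 other transcripts with an iron-responsive hairpin 0 (0 in both). In dKO the mitochondrial and haem lists had 0 calls each (5 and 5).

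Between genotypes 21.5% of all genes had a higher probe set in dKO and 15.3% a lower one in ethanol, and 20.9% and 18.8% under DP. These shares stand beside each list count that follows. Of the 18 measured mitochondrial and cluster genes, in ethanol, 13 had a higher probe set and 1 a lower one, the same gene having both in 1 case. The median was 0.49 over the brightest probe set of each gene, and the list medians below are taken likewise. Over all probe sets of the array, dim ones included, the median was 0.00, which is not the same measure. Under DP 12 of these genes were higher and 0 lower by limma, with 20 of 33 probe sets at an unadjusted p under 0.05. Cisd2, an iron-sulphur protein of the endoplasmic reticulum and mitochondria, was higher by 1.24 ± 0.17 in ethanol (SE, limma adjusted p = 0.000107), from 6.86 to 8.11. Nfs1, the desulphurase that supplies sulphur for clusters, was higher by 0.87 ± 0.12 (adjusted p = 8.88e-05), from 6.18 to 7.05. Among 16 haem genes 8 were higher and 2 lower in ethanol (median 0.23). Ppox and Cpox, late enzymes of haem synthesis, were higher by 1.1 ± 0.11 and 1.08 ± 0.12 (limma adjusted p = 8.33e-06 and 1.54e-05), and Slc48a1, a haem transporter, was lower by -0.95 ± 0.13 (adjusted p = 0.000104).

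Uptake and export genes went both ways between genotypes. Over all genes 21.5% were higher and 15.3% lower in ethanol, and 20.9% and 18.8% under DP. Among 12 uptake and reduction genes 3 were higher and 5 lower in dKO with ethanol (median -0.17), and 2 and 6 under DP. Steap1 and Steap2, of a family of metalloreductases, were lower by -1.44 ± 0.14 and -1.20 ± 0.12 (SE, limma adjusted p = 8.28e-06 and 9.29e-06). The metal importers Slc39a8 and Slc39a14 moved apart, at 0.95 ± 0.13 and -0.75 ± 0.12 (adjusted p = 8.67e-05 and 0.000411). Among 9 export and hepcidin-axis genes 3 were higher and 2 lower in ethanol. Heph, a ferroxidase that works with ferroportin, was blank in wild type (mean 3.49) and read 4.90 in dKO, at least 2.57-fold higher than the blank level (limma adjusted p = 3.31e-06 on the measured values). Cp, the ferroxidase ceruloplasmin, read 4.18 in wild type and a blank 3.19 in dKO, at least 1.57-fold lower (limma adjusted p = 0.00118). Among 6 iron chaperones 2 were higher and 1 lower in ethanol. Pcbp1, which delivers iron to ferritin, was higher by 0.37 ± 0.08 (adjusted p = 0.00421). Of the 4 other transcripts with an iron-responsive hairpin 1 was higher, Epas1, which encodes HIF-2 alpha, by 1.24 ± 0.17 (adjusted p = 0.000102). The calls for Cisd2, Nfs1, Ppox, Cpox, Slc48a1, Steap1, Steap2, Slc39a8, Slc39a14, Heph, Cp, Pcbp1 and Epas1 in ethanol each held when any single array was left out. With the actin difference as a covariate those for Heph, Steap1, Slc39a8 and Ppox held and the others were lost.

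**Figure D4:**
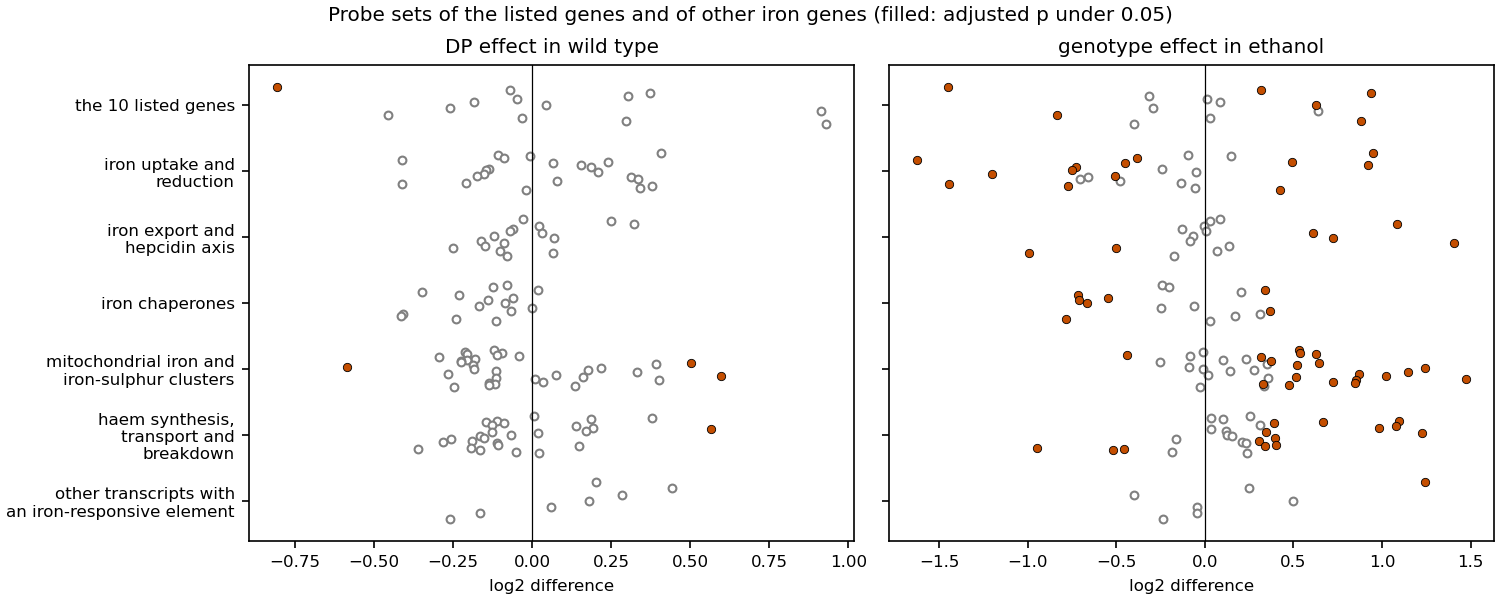
Log2 differences (horizontal axis) of every probe set of the members and of the 6 other iron lists (vertical axis), for DP against ethanol in wild type (left) and dKO against wild type in ethanol (right). Points are probe sets, filled where the limma adjusted p was under 0.05. Few points are filled for DP, while between genotypes filled points lie on both sides of 0 in all but the last list and mostly above 0 in the mitochondrial list.

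Genes whose levels followed the members most closely over the 12 arrays were found by Pearson's r among 8917 genes with a mean of at least 5. The arrays share their group structure, so these values are descriptions. For Tfrc they were Arhgap29 (r = 0.968), Pcf11 (0.962) and Zbtb1 (0.960). For Slc40a1 they were Snai2 (0.960), Rasl11b (0.954) and Stambpl1 (0.953). For Hmox1 they were Dnajb1 (0.889), Smad4 (0.878) and Gm13889 (0.876).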

How the data were processed

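RNA (100 ng per array) was labelled for Affymetrix 3′ arrays, per the labels. Per the submitters' processing notes, the authors made the deposited log2 values with RMA in Affymetrix Expression Console 1.1. RMA background-corrects, quantile-normalizes and compresses small signals. Of 45141 probe sets, 104 were controls, 551 listed several genes and 15588 had no symbol. The 28898 with 1 symbol were fitted with limma 3.58.1 (R 4.3.3), 1 mean per group over all 12 arrays with empirical Bayes variances, and p-values were Benjamini-Hochberg adjusted over all of them. A call is an adjusted p under 0.05. Every member probe set was reported. From each other iron list up to 4 genes per comparison with a call were eligible by smallest p, or 1 where none was called. The members and lists were chosen with earlier results of these data known. Replicates are MEF lines. Each line received both treatments per the labels, so lines pair ethanol and DP arrays; the deviations of the paired arrays correlated by 0.41, 0.03 and 0.33 in wild type and 0.04, 0.30 and 0.31 in dKO. Alternatives changed the scaling (cyclic loess or median centring), the probe set filter and summary, the arrays used and the covariates. The fit was also run on simulated arrays with independent noise and changes in wild type with DP alone. Those arrays had no line pairing, genotype effects or RNA quality differences, so that run is no check of the fit against them. The number of arrays limits precision. Sequences are from RefSeq; 6 of 10 members had a promoter window.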

Additional observations from a re-analysis of the deposited data

How the results depend on the processing

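No member value that was called in any setting changed sign. With the MEF line as a replicate block, which pairs the treatments, the probe sets called numbered 1024 for DP in wild type, 322 for DP in dKO, 8561 between genotypes in ethanol, 9254 under DP and 107 for the difference of responses, and the member probe sets called 0, 1, 6, 5 and 0. Apart from Slc40a1 in wild type and Iba57 the block ended no call of a named gene. Over all probe sets, leaving out 1 array at a time gave 702 to 1363 calls for DP in wild type, 217 to 427 in dKO, 6889 to 9549 between genotypes in ethanol, 7472 to 10347 under DP and 80 to 120 for the difference; the members gave 0 to 2, 0 to 1, 5 to 7, 3 to 6 and 0. With the beta-actin 3′ minus 5′ difference as a covariate the counts were 469, 117, 1385 and 1268, and for members 0, 0, 1 and 0. Since that measure separates the genotypes, the fit leaves little to tell them apart. Without both arrays with haemoglobin signal, a choice made after seeing the data, DP in wild type had 668 calls and the difference 55, and members 0 for DP in either genotype. Fitting only the arrays compared gave 189 calls for DP in dKO and 0 members for DP in wild type. Without wild-type line 5 and dKO line 1 in ethanol, singled out from these data because they correlated less with their groups, 2 members were called for DP in wild type. Counting genes in place of probe sets gave 5645 calls between genotypes in ethanol (mean of probe sets) and 6057 (brightest probe set) or 5919 (mean) under DP, with fewer features tested. Of the 13 member probe sets, 1 Tfrc set was blank throughout and holds no usable difference. A second Slc40a1 set was blank in 3 groups. Among those groups it holds no usable difference, and against wild type with ethanol it gives a lower bound alone.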
